A study of Mus musculus with 9 samples.

Results

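Serum miRNAs of healthy mice were counted with and without RNase H depletion of 5′ tRNA-half fragments, and the comparison addressed which miRNAs survived the treatment, which were lost beyond counting error and which identifiers (IDs) were enriched. The 6 libraries were chosen by their treatment label (3 labelled RNase H and 3 labelled No) out of 9 in the series. All came from pooled serum of healthy male and female 129/SVj mice aged 2 to 9 months, which were sedated with tribromoethanol before blood was drawn. For RNase H-depleted samples, DNA probes against 5′ tRNA-half fragments were hybridised to the RNA, and RNase H and then DNase I were added. Control samples are other fractions of the same RNA that were left undepleted. The labels name serum pools A, B and C, each with 1 control and 1 RNase H library. The protocol describes aliquots of a pool of 3 mice, so the p-values may measure technical spread only.

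A miRNA is a short RNA that guides an Argonaute protein to messenger RNAs through its seed and lowers their output. In serum, miRNAs are protected from ribonucleases by binding proteins and vesicles, which RNA isolation removes. RNase H cuts the RNA strand of a DNA/RNA duplex, so RNA that does not pair with a DNA probe is not a substrate. 5′ tRNA-half fragments are the 5′ parts of tRNAs cut in the anticodon loop, and they dominate small RNA libraries of mouse serum.

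The files give miRNAs by miRBase ID without names. One ID, MIMAT0000527, is paired with a name in the study's text, miR-16-5p, a member of the miR-15/16 family that is abundant in blood cells and represses cell cycle and survival genes. It is shown because it led the miRNAs of control (sequence from RefSeq, GRCm38.p6), with the seed, bases 2 to 8, in capitals.
miR-16-5p: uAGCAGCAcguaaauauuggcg
This mature sequence is present at 2 loci, between which the counts could not be divided. One copy lies in Mir16-2 (GRCm38 chr3:69009918-69009939, plus strand), inside the protein-coding gene Smc4 and outside its annotated exons. The other lies in Mir16-1 (GRCm38 chr14:61631936-61631957, minus strand), inside Dleu2, a gene of processed transcripts, where an annotated Dleu2 exon overlaps it. The remaining miRNAs are given by ID or by their rank, which is the order of the mean share of miRNA counts in the control libraries.

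Control libraries held 205185, 330676 and 248696 miRNA counts in pools A, B and C. RNase H-depleted libraries held 2040, 1977 and 1199, so that 3 counts, the smallest level treated as measurable in a library, equalled 0.147% to 0.250% of the miRNA counts. All values below are shares of the miRNA counts of a library unless stated otherwise, so they describe the makeup of what remained and not how much remained. Over the 3 RNase H libraries, 5216 miRNA counts were obtained, and a miRNA with 0 of 5216 counts could still have a share of up to 0.0575%. Intervals and floors cover the counting error of reads only, and counting error has this meaning throughout. PCR copies of 1 molecule were counted as separate reads, so the counting error of molecules can be larger.

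The most abundant miRNAs of serum were all still detected after RNase H. Each of the 30 highest-ranked miRNAs of control had at least 1 count in all 3 RNase H libraries. Of the 30 miRNAs ranked 31 to 60, 26 were found in all 3 libraries, 3 in 2 libraries and 1 in none. For ranks 61 to 100 these numbers were 10 in all 3, 16 in 2, 10 in 1 and 4 in none, out of 40. Among 100 miRNAs ranked after 100 and up to 200, 57 had no RNase H count, and of the 372 ranked lower, 358 had none.

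**Figure D1:**
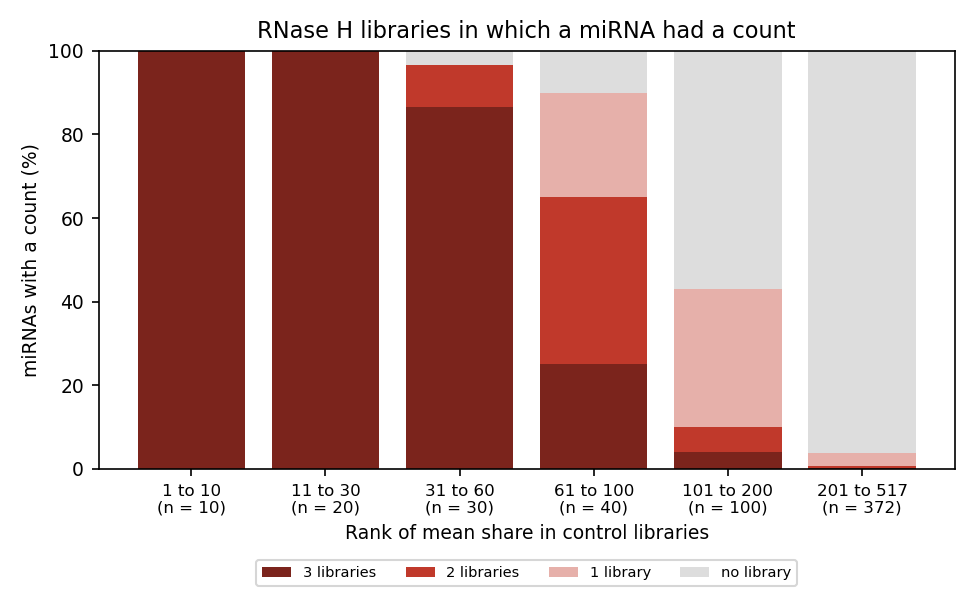
Percentage of miRNAs (vertical axis, %) with at least 1 count in 3, 2, 1 or no RNase H library, by the rank of their mean share in control libraries (horizontal axis, n miRNAs per band). All 30 miRNAs of ranks 1 to 30 were present in every RNase H library, and 358 of 372 beyond rank 200 in none.

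In all, 154 of 574 miRNAs had a count in some RNase H library and 71 had one in every library. A single RNase H library detected 112, 113 and 98 miRNAs in pools A, B and C, and a single control library 404, 444 and 426. The mean difference was -317 miRNAs (two-sided exact permutation p of 0.1, which is the lower limit with 3 libraries a group when the pairing by pool is not used). Of the 420 miRNAs without any RNase H count, 1 had an expected count of at least 5, and the next largest expected count was 1.87. Expected counts were obtained by multiplying the share of a miRNA in control by the miRNA total of the RNase H library of the same pool, and summing over pools. At this depth, all but 1 of the absences could therefore not be told from sampling. The order of abundance was largely retained, since 16 of the 20 most abundant miRNAs of control were among the 20 most abundant after RNase H, and 7 of the first 10 were among the first 10.

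Although they were retained, the leading miRNAs held a smaller share. The 10 most abundant miRNAs of control accounted for 67.2%, 67.6% and 67.6% of the miRNA counts in control pools A, B and C and for 45.4%, 62.2% and 58.0% after RNase H. No RNase H library reached a control library, and pool A was the lowest. The mean difference was -12.3 percentage points (exact permutation p of 0.1, the smallest possible), -7.50 without pool A and -15.7 without pool B. When the list was instead the 10 most abundant miRNAs of the beads-depleted libraries of the series, the difference was -4.84. That list holds MIMAT0000248, of rank 11, in place of the miRNA of rank 9. Shares add up to a fixed total, and none of the 10 leading miRNAs of control was among the 9 described below as raised. Those 9 held 4.02% to 4.54% in control and 29.4%, 12.6% and 18.3% after RNase H in pools A, B and C. The share of the leading miRNAs with those 9 left out of the sums was not computed.

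miR-16-5p, first in control, had 28190, 45427 and 33450 counts in control pools A, B and C and 130, 223 and 125 after RNase H. Its share was 13.7%, 13.7% and 13.5% in control and 6.37%, 11.3% and 10.4% after RNase H, and the groups did not overlap. The raw counts after RNase H were 0.461%, 0.491% and 0.374% of those in control. Observed counts summed to 478 (exact Poisson 95% interval 436 to 523), against 713 expected, and lay below the expected count in all 3 pools. In edgeR's quasi-likelihood test the log2 fold change was -0.56 ± 0.19 (SE), with an adjusted p of 0.0843, so the difference exceeded counting error but did not pass the test across libraries. The call depended on the libraries, since without the RNase H library of pool A the log2 fold change was -0.32 with an adjusted edgeR p of 0.00635.

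MIMAT0000539, ranked 2, lay in the same direction with a smaller difference. Its share was 10.9%, 10.8% and 11.1% in control pools A, B and C and 7.55%, 10.0% and 9.17% after RNase H. The 462 counts observed compared with 569 expected (interval 421 to 506), and the log2 fold change was -0.30 ± 0.16 (edgeR adjusted p of 0.292). The share of MIMAT0000531, ranked 3, was 10.5%, 11.1% and 11.1% in control and 8.82%, 13.1% and 11.1% after RNase H. Here the groups overlapped, the 571 counts observed compared with 567 expected (interval 525 to 620), and the ID ranked first after RNase H. Its log2 fold change was 0.01 ± 0.17 (edgeR adjusted p of 0.997), with a sign that turned under TMM scaling (-0.09).

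**Figure D2:**
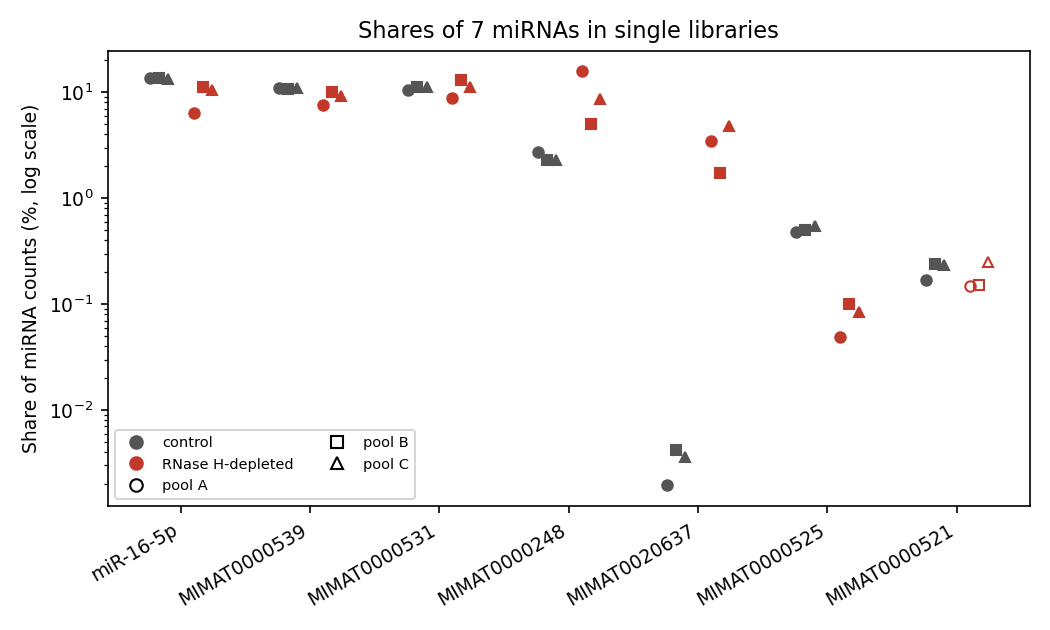
Share of the miRNA counts of a library (vertical axis, %, log scale) for 7 miRNAs in 3 control (grey) and 3 RNase H-depleted libraries (red), with the pool given by the symbol. Open symbols for MIMAT0000521 mark the 3-count floor of RNase H libraries without a count, 0.147% to 0.250%. The RNase H points of MIMAT0020637 lie between 1.72% and 4.75%, far above control, and those of MIMAT0000525 lie below control.

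In all, 63 miRNAs, these 3 among them, had an expected count of at least 5, and together they held 96.8% of the control miRNA counts. At an expected count of 5, only a complete loss can be seen. Of the 63, 36 had an observed count whose 95% interval covered the expected count, 19 (30.2%) lay below it and 8 (12.7%) above it. Of the 19, 17 were below it in each of the 3 pools, and of the 8, 5 were above it in each. All 19 had an expected count of at least 10. The ratio of observed to expected counts had a median of 0.817 and ranged from 0 to 14.2. Among the 36 it ranged from 0.461 to 1.90, so an interval that covers the expected count does not show that a miRNA was kept. The miRNAs below their expected count made up 57.3% of the miRNA counts in control and 41.3% after RNase H. For those above it, the share was 7.06% in control and 20.2% after RNase H, and for those within, 32.5% and 31.1%.

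**Figure D3:**
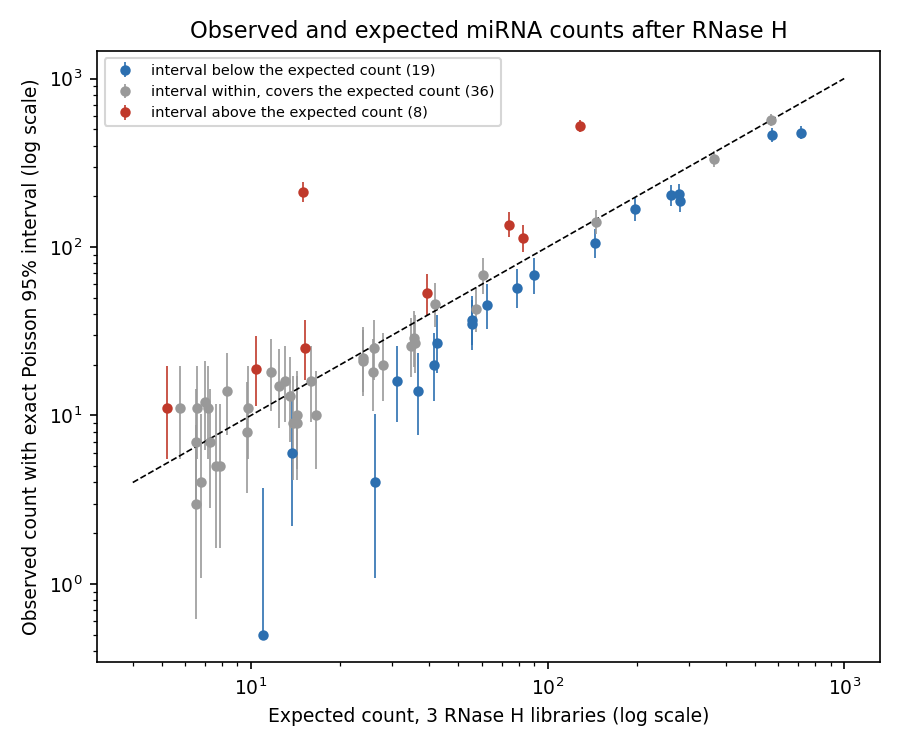
Summed count in 3 RNase H libraries with its exact Poisson 95% interval (vertical axis, log scale) against the count expected from the control shares (horizontal axis, log scale) for 63 miRNAs, with the dashed line marking equality. An observed count of 0 is drawn at 0.5. Blue marks 19 miRNAs below, red 8 above and grey 36 within their interval.

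Shares add up to a fixed total, so they depend on one another. When the 9 miRNAs that rose in the edgeR test were left out of all library sums, 6 of 58 miRNAs lay below their expected count, 9 above and 43 within. Those 9 were chosen by their rise in these same counts, and leaving them out raises the ratio of every other miRNA. The smaller number below was thus partly set in advance, and whether the rises account for the falls was not tested. All 6 were among the 19, and all 5 miRNAs that fell in the edgeR test were among the 6. miR-16-5p then had a ratio of observed to expected counts of 0.808, compared with 0.670 before. Without pool A, 11 of 52 miRNAs lay below and 4 above.

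The ratio of observed to expected counts differed between bands of rank, and single IDs weighed on several of them. The 10 highest-ranked miRNAs gave 2852 counts against 3518 expected, a ratio of 0.811 (95% interval 0.781 to 0.841), and 7 of them lay below their own expected count, 3 within and none above. For ranks 11 to 30 the ratio was 1.26 (1.20 to 1.33), with 9 miRNAs below, 4 above and 7 within, and their median ratio was 0.748. The ratio of the summed counts was thus above 1 while the median miRNA was below 1. Of the 1403 counts of this band, 523 came from MIMAT0000248, for which 129 were expected. For ranks 31 to 60 the ratio was 1.39 (1.28 to 1.51) and the median 0.939, and the miRNA of rank 39 gave 213 of 560 counts with 15.0 expected. For ranks 61 to 100 the interval covered 1 (1.13, 0.952 to 1.34). For ranks after 100 and up to 200 it was 4.87 (4.26 to 5.54), where MIMAT0020637 alone gave 161 of 232 counts, and without it 71 counts were observed against 47.5 expected.

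Across libraries, 14 of 138 tested miRNAs (10.1%) changed in the edgeR test with Benjamini-Hochberg adjustment, and 27 had an unadjusted edgeR p below 0.05. Of the tested miRNAs, 9 (6.52%) rose and 5 (3.62%) fell. The median log2 fold change over all 138 was -0.07, with 61 positive and 77 negative. The filter on low counts bears on the rises. Of the 138 tested miRNAs, 127 passed it through the control libraries alone, among them 4 that rose and all 5 that fell. The other 11 passed only with the help of their RNase H counts, and 5 of these rose (ranks 146, 166, 170, 195 and 261). Since miRNAs equally rare in control but without RNase H counts were not tested, the number of rises and their share are partly set by the filter and are given as a description. Without the filter, all 9 were called as well. The 4 rises that passed through control lay above their expected count in all 3 pools, and the 5 falls below it in all 3. With the serum pool as a block, edgeR called 12 miRNAs, and the lost ones were a raised one of rank 75 (adjusted p of 0.0605) and a lowered one of rank 6 (adjusted p of 0.103). Both scale and libraries mattered for the counts of calls. With all annotated counts as library size, 4 rose and 47 fell, since the median log2 fold change then moved by -1.63 (TMM and DESeq2 scaling moved it by -0.12 and 0.11).

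MIMAT0000248 contributed the largest number of extra counts. It had 5620, 7588 and 5655 counts in control pools A, B and C and 320, 99 and 104 after RNase H, and it went from rank 11 to rank 2. Its share was 2.74%, 2.29% and 2.27% in control and 15.7%, 5.01% and 8.67% after RNase H, without overlap, and pool A was the highest. Compared with expectation, its counts were 5.73, 2.18 and 3.81 times as high in pools A, B and C. The log2 fold change was 2.02 ± 0.26 (edgeR adjusted p of 3.03e-05), and it was 1.41 without the RNase H library of pool A. With all annotated counts as library size it was 0.31 (edgeR adjusted p of 0.680). Its raw counts were lower after RNase H than in control in every pool.

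MIMAT0020637 was the single ID with more raw counts after RNase H than in control in at least 2 pools, although the RNase H libraries held far fewer miRNA counts in all. It had 4, 14 and 9 counts in control pools A, B and C and 70, 34 and 57 after RNase H, that is 17.5, 2.43 and 6.33 times as many raw counts. Its rank went from 195 to 10 and its mean share from 0.00327% ± 0.00118 to 3.30% ± 1.52 (SD, n = 3). The log2 fold change was 9.79 ± 0.39 (edgeR adjusted p of 3.49e-12), and it lay between 9.51 and 10.39 when a pool or library was left out. In beads-depleted libraries, which were made from the same pools with probes but without RNase H, its mean share was 0.0114% ± 0.00248 (SD, n = 3).

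A miRNA of rank 39 formed the third large rise. It had 614, 955 and 664 counts in control pools A, B and C and 144, 62 and 7 after RNase H. The 213 counts observed compared with 15.0 expected, and the pools differed widely, with ratios of 23.6, 10.9 and 2.19. The log2 fold change was 3.8 ± 0.37 (edgeR adjusted p of 7.66e-07), 2.91 without the RNase H library of pool A and 4.17 without that of pool C. A rise in a miRNA of rank 15 was smaller but more even, with 52, 42 and 42 counts and a log2 fold change of 0.89 ± 0.17 (edgeR adjusted p of 0.00156). It did not pass without pool C (adjusted p of 0.176).

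The other 5 miRNAs that rose, of ranks 75, 146, 166, 170 and 261, had few counts, and for 3 of them the share was far above control in beads-depleted libraries as well. They had between 4 and 13 counts summed over the 3 RNase H libraries, and no more than 5 in any library. At rank 146 the mean share was 0.00827% in control, 0.0942% after RNase H and 0.137% after depletion with beads. At rank 166 these shares were 0.00528%, 0.0773% and 0.0342%, and at rank 170 they were 0.00483%, 0.122% and 0.106%. Ranks 75 and 261 had 0.0838% and 0.00119% in beads-depleted libraries and 0.0688% and 0.00117% in control. Together with MIMAT0020637 they had expected counts under 5, and for such miRNAs a fall by more than a small factor would end under the 3-count floor. Of the 138 tested miRNAs, 75 had an expected count under 5 and 31 under 1, so the share of rises among the calls is not comparable with that of falls.

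The 9 miRNAs that rose held 29.4%, 12.6% and 18.3% of the miRNA counts after RNase H in pools A, B and C, and 4.02% to 4.54% in control. MIMAT0000248, MIMAT0020637 and the miRNA of rank 39 alone held 26.2%, 9.86% and 14.01%, against 2.54% to 3.04%. In the beads-depleted libraries the 9 held 5.07% to 5.83%, a sum set mainly by MIMAT0000248 (2.95%) and the miRNA of rank 15 (1.87%), which had 2.44% and 1.42% in control. The miRNA of rank 39 had 0.267% there and 0.285% in control. These sums follow from the calls and are given as a description. They were largest in pool A, the library in which miR-16-5p had its lowest share.

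Among the miRNAs that fell, MIMAT0000525 was the clearest. It had 981, 1670 and 1355 counts in control pools A, B and C and 1, 2 and 1 after RNase H. The share was 0.478%, 0.505% and 0.545% in control and 0.0490%, 0.101% and 0.0834% after RNase H, and all RNase H values lie under the 3-count floor of their library. Its 4 counts compared with 26.3 expected (interval 1.09 to 10.2), and it went from rank 31 to rank 76. The log2 fold change was -2.73 ± 0.46 (edgeR adjusted p of 0.000503). It was called in all 14 alternative fits in which it was tested. In beads-depleted libraries its mean share was 0.167% ± 0.0165 (SD, n = 3), also under the 0.509% ± 0.0336 of control.

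MIMAT0000521, of rank 48, was the most abundant miRNA without a count after RNase H. It had 349, 793 and 582 counts in control pools A, B and C and none in any RNase H library, where 11.02 were expected. The expected count was 3.67 times a floor of 3 counts over the group (edgeR adjusted p of 0.0281). That is not a lower bound on the fall, since the exact Poisson 95% interval of the 0 counts reached 3.69 counts, or 0.335 of the expected count. In pools A, B and C, 3.47, 4.74 and 2.81 counts were expected, near the 3-count floor of a single library. The mean share of MIMAT0000521 was 0.215% in control and 0.127% in beads-depleted libraries. It was called in 7 of 13 alternative fits, and the call was lost in edgeR without any one of the 3 RNase H libraries (adjusted p of 0.0672 to 0.244).

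The other 3 miRNAs that fell were of ranks 6, 22 and 25. The miRNA of rank 6 had 66, 84 and 37 counts after RNase H, and 0.670 times its expected count, the same ratio as miR-16-5p, with a log2 fold change of -0.58 ± 0.16 (edgeR adjusted p of 0.0288). At rank 22, 8, 8 and 4 counts were 0.482 times the expected number, and the log2 fold change was -1.07 ± 0.30. At rank 25, 7, 2 and 5 counts were 0.382 times the expected number, and the log2 fold change was -1.39 ± 0.33. Leaving out a pool or library ended the call of the rank 6 miRNA in 6 of 9 fits (without pool B, pool C, any control library or the RNase H library of pool C) and that of rank 22 in 5 of 9 (without pool B, pool C or any RNase H library). The call of rank 25 was lost in 2 of 9, without pool B and without its RNase H library, where the log2 fold change was -0.93. Its mean share was 0.705% in control, 0.287% after RNase H and 0.311% after depletion with beads. At ranks 6 and 22 the beads-depleted libraries had 5.08% and 0.713%, beside 5.32% ± 0.243 and 0.804% ± 0.0979 in control (SD, n = 3).

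Replicates agreed less well after RNase H. For the 20 most abundant miRNAs of control, the coefficient of variation of the share over the 3 pools had a median of 4.12% in control and 22.9% in RNase H-depleted samples. Counting error alone would give a median of 15.0% at these depths after RNase H, and 14 of the 20 lay above their own counting error.

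High-numbered miRBase IDs held a larger share after RNase H. The 210 IDs from MIMAT0014000 upwards held 0.983% to 1.05% of the miRNA counts in control and 11.6%, 6.32% and 6.59% after RNase H in pools A, B and C. They gave 441 counts against 53.5 expected, a ratio of 8.24 (7.49 to 9.05). Most of these counts came from the miRNA of rank 39 (213) and MIMAT0020637 (161), and 21 of the 210 IDs had any RNase H count. Of the 14 that were tested, 3 rose (6.52% over all tested miRNAs). Those of ranks 195 and 261 were tested only with the help of their RNase H counts, so the number that rose is partly set by the filter. Without the 3 that rose, 58 counts were observed against 38.3 expected. In the lowest-numbered block, up to MIMAT0000999, 4231 counts compared with 4568 expected (ratio 0.926, 0.899 to 0.955), and 5 of the 90 tested miRNAs rose and 5 fell, against 6.52% and 3.62% over all tested miRNAs. Here the rises of ranks 146 and 170 were tested only with the help of their RNase H counts. The blocks were chosen after the values were seen, and no test was made between them.

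The tRNA, piRNA and rRNA classes were described by the makeup of their sequences. Each tRNA, piRNA or rRNA sequence of a library was listed with its own count, but not with a name that links it between libraries. The most abundant tRNA sequence had between 1615534 and 2034914 counts in control and 11561, 1244 and 4222 after RNase H in pools A, B and C. The 10 most abundant tRNA sequences held 84.7% ± 0.129 of the tRNA counts in control and 62.3% ± 7.01 after RNase H (SD, n = 3). The number of distinct tRNA sequences was 4755 ± 274 in control and 960 ± 282 after RNase H. The tRNA counts in all were 3648482 to 4580374 in control and 50119, 10528 and 17034 after RNase H in pools A, B and C. Distinct numbers depend on the counts of a class, so this difference does not show a change in diversity.

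Sequences annotated as piRNA, a class named for its binding to PIWI proteins in the germline, lay the other way. The most abundant one had 637, 740 and 582 counts in control pools A, B and C and 19679, 8638 and 17246 after RNase H, between 11.7 and 30.9 times as many within a pool. The 10 most abundant piRNA sequences held 33.6% ± 0.563 of the piRNA counts in control and 66.9% ± 3.10 after RNase H (SD, n = 3). Distinct piRNA sequences numbered 1198 ± 162 in control and 2068 ± 484 after RNase H. The same limit holds, since the piRNA counts in all were 3528 to 5262 in control and 104282, 33538 and 59370 after RNase H. Among rRNA sequences the 10 most abundant held 67.0% ± 5.23 in control and 48.5% ± 9.15 after RNase H, and their distinct number did not separate the groups (285 ± 20.7 and 279 ± 63.1). Over 9 such comparisons, 8 had an exact permutation p of 0.1, the smallest possible, and the number of distinct rRNA sequences had an exact permutation p of 0.9, so none could pass a threshold of 0.05.

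**Figure D4:**
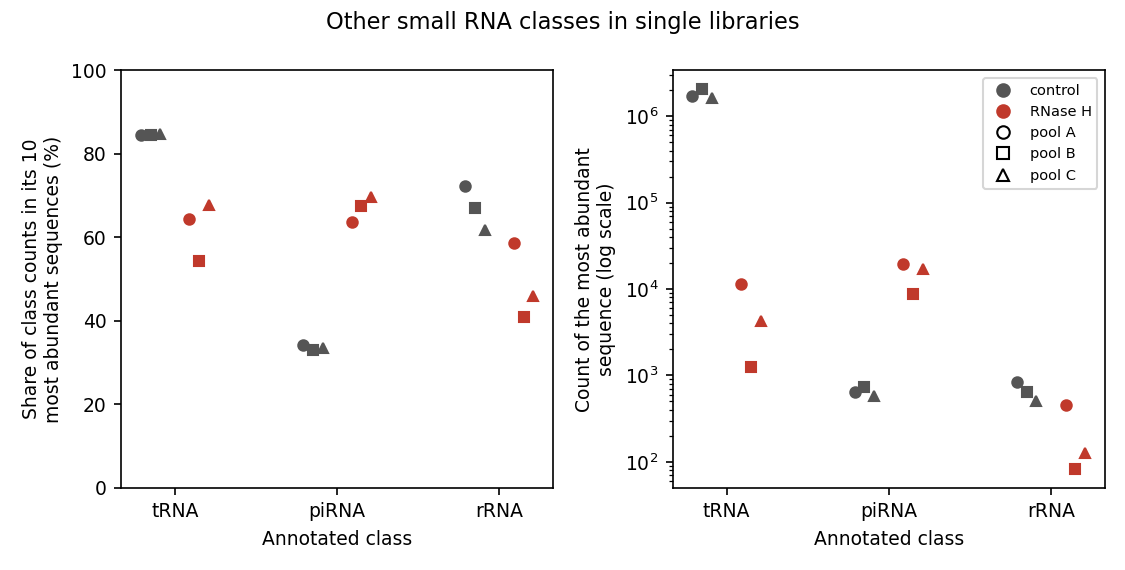
Share of the counts of a class held by its 10 most abundant sequences (left, %) and count of its most abundant sequence (right, log scale) in single libraries, with control in grey, RNase H-depleted in red and the pool given by the symbol. The piRNA shares after RNase H lie between 63.6% and 69.7%, above the control range of 33.0% to 34.2%, and the tRNA shares lie below control.

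Sequences are numbered within a library in order of falling count. In every control library the first listed number was 1, a tRNA sequence. After RNase H the first listed numbers were 53, 63 and 35 in pools A, B and C, all piRNA sequences, with 19679, 8638 and 17246 counts. Hence 52, 62 and 34 sequences with at least as many reads preceded them, none of them in a listed class, and no miRNA reached such a count, the largest being 320, 258 and 133. The listed sequences, which include further classes not described here, were 9.86% to 10.8% of the numbers in control and 1.17% to 1.21% after RNase H. The paper reported far fewer mapped reads after RNase H than in control, from a similar number of total reads. What these unlisted sequences are, and whether they map to the mouse genome, was not tested here.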

How the data were processed

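The authors trimmed adapters (Cutadapt 1.8.1) and mapped reads to GRCm38 without mismatches (Bowtie 1.1.2). They deposited raw counts per miRBase ID and, separately, per sequence of other small RNA classes, of which only tRNA, rRNA and piRNA are described here. Reads with an error or an untemplated end are thereby lost. Libraries were grouped by label. The miRNA test used edgeR 4.0.16 in R 4.3.3 (quasi-likelihood, default filterByExpr, miRNA sum as library size, Benjamini-Hochberg adjustment over 138 miRNAs, threshold 0.05). It was also run on simulated data with a common dispersion, as a check of the code that does not give its error rate in these libraries. The SE is the log2 fold change divided by the root of the F statistic. Exact Poisson intervals and permutation tests were computed with SciPy 1.17.1 (Python 3.11.15). Pools pair the libraries, since fractions of the same RNA were used. The permutation tests and the main edgeR fit did not use this pairing. Deviations of same-pool libraries correlated with r of 0.03, -0.18 and -0.01 over 63 miRNAs. Alternatives were DESeq2 1.42.0, other scaling and filters, a pool block and left-out libraries. The naming rule covered the 15 leading miRNAs of control, the 10 leading after RNase H, called miRNAs, those with more raw counts after RNase H, the 10 leading absent ones and 1 of each family or tissue list. Because no table of names was used, ranks or counts stand for most of them, and the 6 IDs printed beside miR-16-5p were chosen after values were seen. Libraries, blocks and lists were chosen with earlier results of these data known.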

Additional observations from a re-analysis of the deposited data

How the results depend on the processing

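With the replicate block, 12 miRNAs were called, which ended the calls of rank 75 (raised) and rank 6 (lowered) and changed no other. The number called was 51 with all annotated counts as library size (4 raised, 47 lowered), 22 with DESeq2 (14 raised, 8 lowered) and 9 with a mean share of at least 0.1% (5 raised). Leaving out a pool or library gave 7 to 14 called, 4 to 8 raised and 2 to 8 lowered. The lowest counts came without a control library, where edgeR's filter kept 33 or 34 miRNAs (7 to 9 called), and without pool C (8 called). A 99% interval left 12 miRNAs below and 4 above the expected count, leaving the raised miRNAs out of the sums left 6 below, and an expected count of at least 10 left 23 within. Without a pool, 11 to 18 lay below, 4 to 6 above and 27 to 37 within. The log2 fold change of MIMAT0000531 was -0.0907 with TMM, -1.27 with all annotated counts, -0.0055 with the replicate block and between -0.16 and 0.16 with a pool or library left out. miR-16-5p stayed negative in all 16 alternatives and passed in 7. Depth limits the losses that can be seen to the 63 miRNAs with an expected count of at least 5, and near 5 to complete losses. The planned comparisons of miRNA families, tissue lists and base composition were not run, because the files pair IDs with no names.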
